A study of Mus musculus with 12 samples.

Results

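The 12 tumors of the series were compared by doxorubicin treatment over both antibodies, 6 tumors from mice given the drug against 6 from mice not given it. Tumors were assigned by treatment label alone, and 12 of 12 entered. All came from female C57BL/6 mice in which the MMTV promoter, active in mammary epithelium, drives the polyoma middle T oncoprotein (PyMT), and RNA from whole tumors was sequenced. The IgG1 group and the anti-PD-1 group, 3 tumors each, received antibody alone, at 20 mg/kg first and then 10 mg/kg every 6 days to day 18, from a tumor diameter of 0.6 cm. The DOX/IgG1 group and the DOX/anti-PD-1 group, also 3 tumors each, received 5 mg/kg doxorubicin weekly for 5 weeks from a diameter of 1 cm, with 10 mg/kg of the same antibodies on the day after each dose. The label for treatment length gives weekly dosing over 5 weeks for every group, which for antibody alone differs from the protocol just described. Ages at sampling were not given in the labels. Doxorubicin therefore came with another schedule, another starting size and a lower first antibody dose, and these cannot be told apart. Each library is 1 tumor, and nothing states whether tumors of a group came from separate mice, so the p-values measure the spread between these tumors.

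Doxorubicin traps topoisomerase II on cut DNA, and the breaks activate the p53 pathway, whose target genes arrest the cell cycle or lead to cell death. Mammary luminal cells are also secretory cells: proteins bound for export enter the endoplasmic reticulum (ER), where a signal peptidase trims them and chaperones fold them. The unfolded protein response (UPR) adjusts the output of that machinery, in large part through the transcription factor encoded by Xbp1.

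The deposited values were log2(TPM + 1), transcript abundance scaled to a fixed total per tumor and put on a log scale, without read counts, so the depth of each tumor is unknown. Summed TPM over the listed genes ran from 609418 to 725506. Of 21960 genes listed, 14735 reached 1 TPM in 3 or more tumors and were tested. The 19 luminal epithelium markers, among them Epcam and the keratins of luminal cells, summed to 4011 to 5845 TPM without doxorubicin and to 3970 to 6177 TPM with it. None was at 0 in all tumors, so the labelled mammary origin had its markers in both arms.

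1 tumor stood apart before any comparison was made. DOX/IgG1 replicate 1 had a mean correlation across genes of 0.877 with the other tumors, where the others had 0.888 to 0.920. On the second principal component, which held 15.0% of the variance, its score was -88.1, and it accounted for 75.3% of that component. It also had the most genes at 0 TPM, 8104. On the first component, with 19.4% of the variance, DOX/IgG1 replicates 2 and 3 (53.2 and 55.1) and DOX/anti-PD-1 replicate 3 (48.2) lay away from the remaining tumors, none of which was above 8.22. Results are therefore given with all 12 tumors and with the 11 left without DOX/IgG1 replicate 1.

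With both antibodies, tumors given doxorubicin had more transcript of St3gal4, Gas6 and Col27a1, and these were the 3 genes that passed the test in limma with all 12 tumors, each more than doubled (the limits were an adjusted p under 0.1 and a log2 difference over 1 in size). They were 0.0204% of the genes tested. None passed in the lower direction (0%), where 465 genes had an unadjusted p below 0.05. Without DOX/IgG1 replicate 1 the same test passed 179 higher genes (1.21%) and 33 lower genes (0.224%), all 3 above among them, and 1666 were higher (11.3%) and 503 lower (3.41%) at an unadjusted p below 0.05. No other tumor, when left out, gave as many calls, so values with 11 tumors come from the fit with the most. Medians of gene lists, which were not tested, were shifted too. Those of ER machinery and histones lay below the median of all genes. Those of basal and fibroblast markers lay above it, as did that of p53 targets with IgG1.

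St3gal4 encodes a sialyltransferase that caps glycans of glycoproteins and glycolipids with sialic acid; it lies on chromosome 9, at 35046576 to 35119268 of GRCm38. It stood at 11.4 TPM in the lowest, 17.4 in the median and 22.6 in the highest tumor without doxorubicin, and at 28.7, 47.3 and 82.0 TPM with it. The arms did not overlap, and DOX/IgG1 replicates 2 and 3 were the highest of all. St3gal4 rose by 1.49 on the log2 scale (SE 0.22, adjusted p = 0.0642, higher in 6 of 6 tumors), by 1.56 with IgG1 and by 1.42 with anti-PD-1. An exact permutation test within antibodies gave a two-sided p = 0.005, the smallest that 400 arrangements allow; 233 tested genes had that same value, which says only that the tumors did not overlap within either antibody. With 11 tumors the log2 difference was 1.63 (limma adjusted p = 0.00977).

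Gas6 encodes a secreted ligand of the TYRO3, AXL and MERTK receptor kinases, which bridges them to phosphatidylserine on dying cells; the gene lies on chromosome 8, at 13465374 to 13494490. Its lowest, median and highest levels were 50.2, 71.8 and 133 TPM without doxorubicin and 110, 162 and 221 TPM with it. The arms overlapped across antibodies, since IgG1 tumors were higher than anti-PD-1 tumors, but within each antibody all 3 treated tumors lay above all 3 others. Gas6 rose by 1.05 (SE 0.16, adjusted p = 0.0642, exact p = 0.005), by 0.92 with IgG1 and by 1.19 with anti-PD-1. With 11 tumors the log2 difference was 1.04 (limma adjusted p = 0.0231).

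Col27a1 encodes a fibrillar collagen chain best known from cartilage and lies on chromosome 4, at 63214004 to 63334991. Its levels were low, 2.30, 3.04 and 5.29 TPM without doxorubicin against 9.60, 13.1 and 21.6 TPM with it. The arms did not overlap. Col27a1 rose by 1.77 (SE 0.28, adjusted p = 0.0642, exact p = 0.005), by 1.89 with IgG1 and by 1.65 with anti-PD-1, and with 11 tumors by 1.92 (limma adjusted p = 0.0141).

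These calls were near the limit of the test. Leaving out 1 tumor at a time, St3gal4 passed in 6 of 12 fits and Gas6 and Col27a1 in 5 each, and the number of genes passing ranged from 0 to 179 higher and from 0 to 33 lower. No gene passed without IgG1 replicate 2, without IgG1 replicate 3, without anti-PD-1 replicate 1 or without DOX/IgG1 replicate 3, where limma gave 1078 to 1316 higher and 387 to 459 lower genes at an unadjusted p below 0.05. When DOX/anti-PD-1 replicate 2 was left out, 27 passed. None of the 3 passed without DOX/IgG1 replicate 2 or DOX/anti-PD-1 replicate 3 either, and without anti-PD-1 replicate 2 St3gal4 alone of them did. Their log2 differences stayed between 0.98 and 1.92 throughout. With all 12 tumors, none of the 3 passed in a fit without the antibody covariate or without a mean-variance trend, and with a replicate block St3gal4 alone did.

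**Figure D1:**
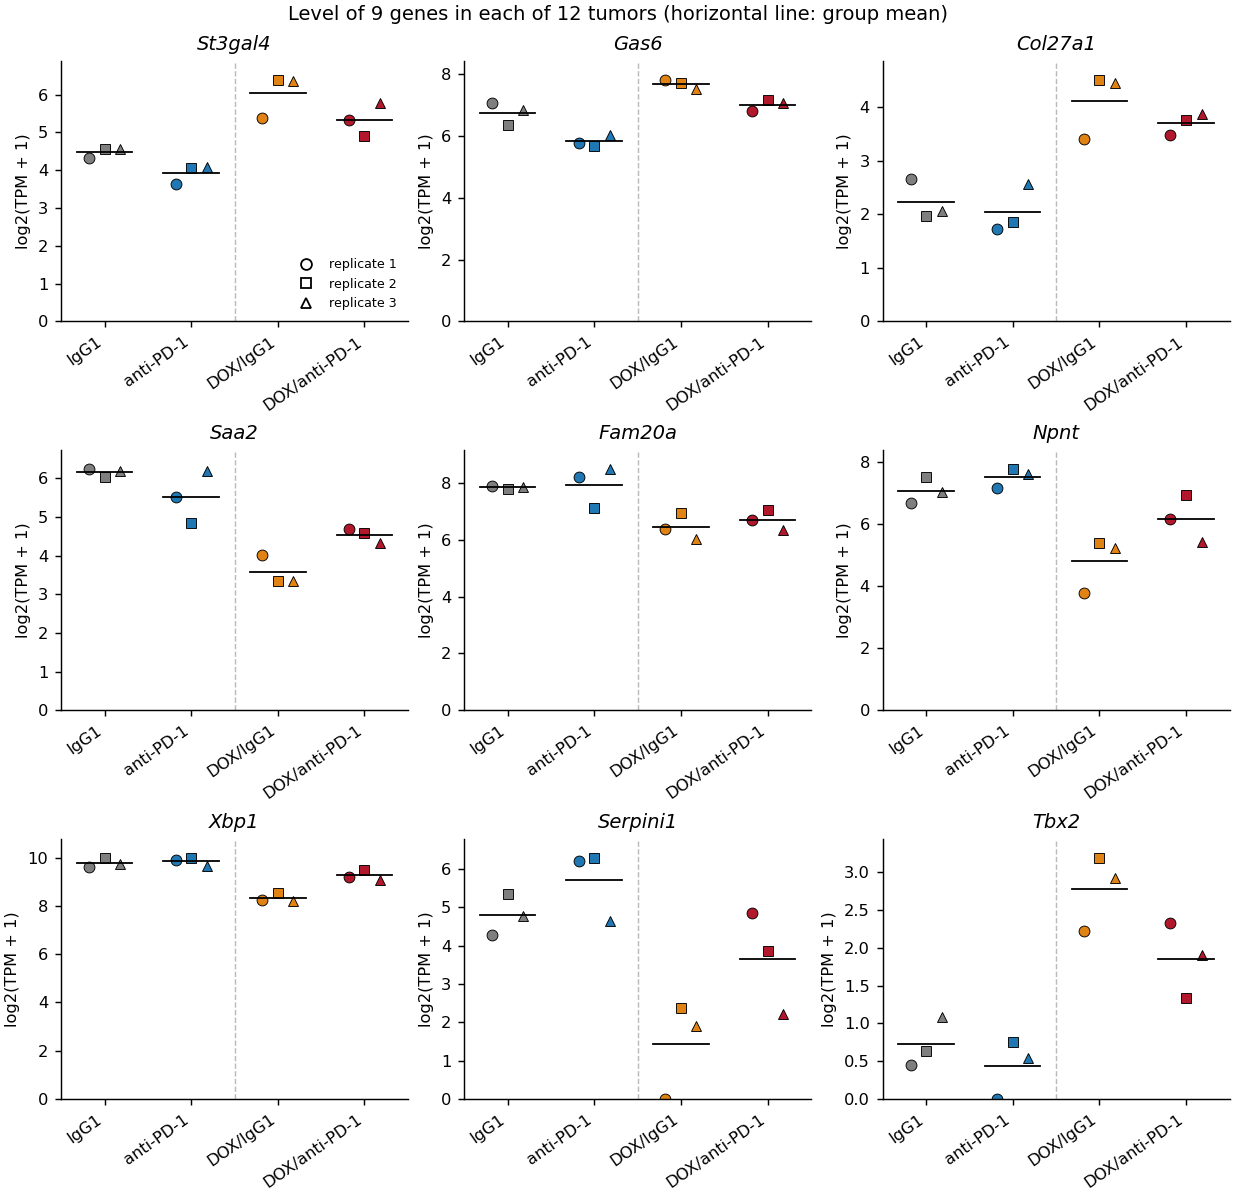
Level of 9 genes as log2(TPM + 1) in each of 12 tumors, by group; circle, square and triangle are replicates 1, 2 and 3, and the line is the group mean. St3gal4, Col27a1 and Tbx2 lay higher in all 6 tumors given doxorubicin, and Saa2, Fam20a and Xbp1 lay lower in all 6.

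Over all genes tested, the median log2 difference was 0.12, and 63.3% of genes lay above 0. At an unadjusted p below 0.05, 1300 genes were higher (8.82%) and 465 lower (3.16%), where 736.75 would fall there by chance in both directions together. That balance followed the scaling: the all-gene median was 0.0074 after scaling each tumor by the median of ratios and 0.0034 after quantile normalization. With median of ratios 815 genes were higher and 900 lower, and with quantile normalization 783 and 867. The excess of higher genes is therefore relative to TPM as deposited. Under both scalings St3gal4 and Col27a1 passed as higher, Gas6 came to 0.93 and 1.00 and so missed the fold limit, and 11 and 13 lower genes passed, Saa1, Saa2, Fam20a, Npnt, Serpini1, Xbp1, Nucb2 and Tmc5 among them.

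Counting tumors rather than fitting a model, all 6 with doxorubicin lay above all 6 without for 88 genes (0.597%) and below for 18 (0.122%). Within each antibody separately, 3 lay above 3 for 192 genes (1.30%) and 3 below 3 for 41 genes (0.278%). These counts also followed the scaling, at 103 and 129 with median of ratios and at 109 and 113 with quantile normalization. With fewer tumors separation is easier: leaving out any 1 gave 245 to 550 and 52 to 134.

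**Figure D2:**
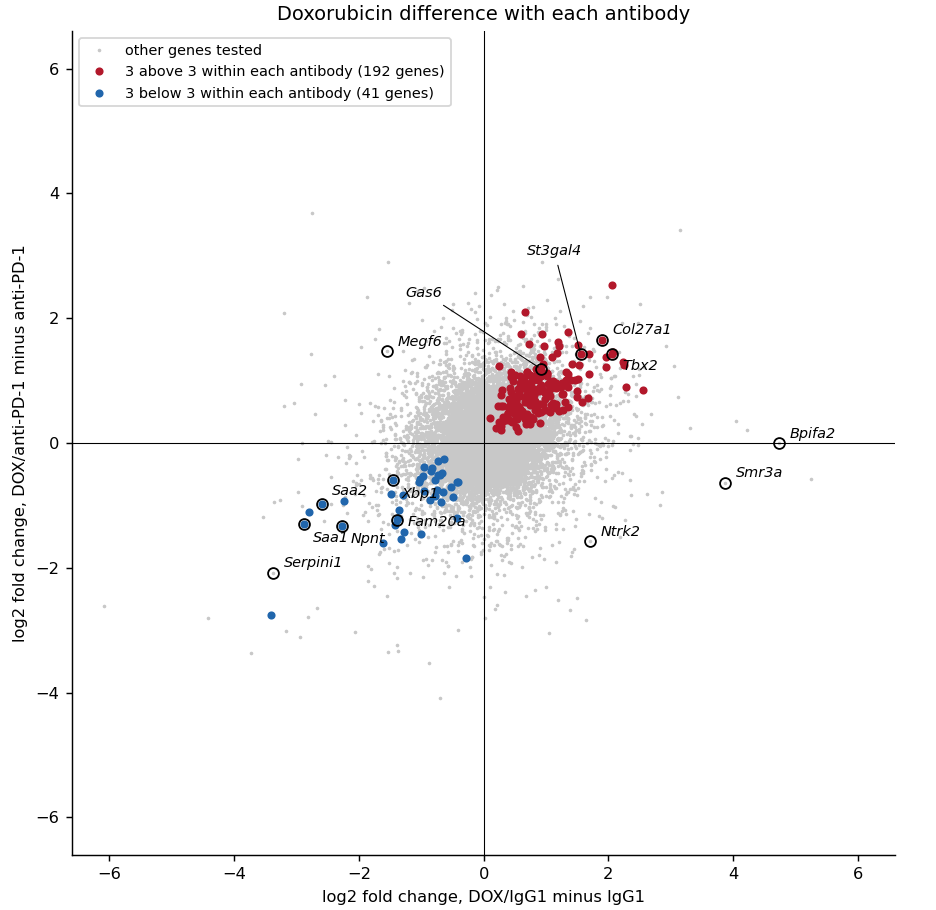
Each point is 1 of 14735 genes; the horizontal axis is the log2 fold change of DOX/IgG1 against IgG1 and the vertical axis that of DOX/anti-PD-1 against anti-PD-1. Red and blue points are the 192 and 41 genes whose tumors did not overlap within either antibody; Bpifa2, at 0 in every tumor outside DOX/IgG1, lies far to the right, at a place that the pseudocount sets.

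Several further genes came near the limits with all 12 tumors. Saa2 and Saa1 encode serum amyloid A, acute phase proteins that the epithelium also makes. Saa2 stood at 27.8, 68.2 and 74.7 TPM without doxorubicin and at 9.12, 17.2 and 24.9 TPM with it. No treated tumor reached the lowest untreated one. The log2 difference of Saa2 was -1.78 (SE 0.30, limma adjusted p = 0.1003, lower in 6 of 6), and with 11 tumors it fell by 1.79 (limma adjusted p = 0.0315). Saa1 stood at 132, 165 and 262 TPM against 12.4, 33.9 and 149 TPM, with a log2 difference of -2.09 (limma adjusted p = 0.1003) and of -2.01 with 11 tumors (limma adjusted p = 0.0404). DOX/anti-PD-1 replicate 3 overlapped the untreated tumors for Saa1. The coding sequences of this pair are nearly alike, so reads could be shared between them. The difference was smaller with anti-PD-1 (-0.98 for Saa2 and -1.29 for Saa1) than with IgG1 (-2.58 and -2.88), and neither interaction passed after adjustment in limma (adjusted p = 0.993 for both).

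Fam20a, a pseudokinase that partners the secretory pathway kinase FAM20C, stood at 137, 235 and 360 TPM without doxorubicin and at 64.5, 92.8 and 131 TPM with it. The arms did not overlap. Its log2 difference was -1.32 (SE 0.23, limma adjusted p = 0.1003), -1.39 with IgG1 and -1.24 with anti-PD-1, and with 11 tumors Fam20a fell by 1.29 (limma adjusted p = 0.0427). Npnt, which encodes the basement membrane protein nephronectin, an integrin ligand, stood at 102, 163 and 218 TPM against 12.9, 41.6 and 122 TPM. 1 treated tumor, DOX/anti-PD-1 replicate 2, lay within the range of the untreated ones. The log2 difference of Npnt was -1.81 (SE 0.32, limma adjusted p = 0.1003) and with 11 tumors it fell by 1.53 (limma adjusted p = 0.0237). Serpini1, the inhibitor neuroserpin, stood at 18.3, 33.2 and 77.7 TPM against 0, 3.90 and 28.0 TPM. DOX/anti-PD-1 replicate 1 alone reached the untreated range. Serpini1 differed by -2.73 on the log2 scale (SE 0.51, limma adjusted p = 0.112), and with 11 tumors it fell by 2.34 (limma adjusted p = 0.0385). Tmc5, a transmembrane channel-like protein, was also lower within each antibody, at 25.0, 59.6 and 82.0 TPM against 4.40, 22.7 and 42.8 TPM, and with 11 tumors it fell by 1.32 (limma adjusted p = 0.0569). Tmc5 passed with no other tumor left out.

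Among higher genes, Tbx2 encodes a T-box transcription factor that represses transcription in development and in some breast cancers. Tbx2 was near 0 without doxorubicin, at 0, 0.505 and 1.13 TPM, and stood at 1.52, 3.86 and 8.15 TPM with it. The arms did not overlap, and the log2 difference of Tbx2 was 1.74. Only 1 untreated tumor reached 1 TPM, so Tbx2 entered the test through the treated tumors and its values are a description. Plau, the urokinase that activates plasminogen, stood at 8.29, 10.9 and 13.7 TPM against 15.3, 28.8 and 43.1 TPM. Again the arms were apart. For Plau the log2 difference was 1.27 (SE 0.25, limma adjusted p = 0.118), 0.97 with IgG1 and 1.56 with anti-PD-1, and with 11 tumors it rose by 1.45 (limma adjusted p = 0.0148). Plau passed with no other tumor left out. Ccser2, a microtubule-binding protein, stood at 35.2, 44.3 and 58.8 TPM against 72.3, 86.3 and 103 TPM, a log2 difference of 0.90. Igfbp4, a secreted binding protein that holds insulin-like growth factors, stood at 92.6, 129 and 283 TPM against 180, 264 and 387 TPM, a log2 difference of 0.92. The arms were apart for Ccser2, and for Igfbp4 within each antibody. The limma adjusted p was 0.1003 for both Ccser2 and Igfbp4, and their difference was below the fold limit. Defb1, an epithelial defensin, was at 0, 0.34 and 16.4 TPM against 0, 35 and 136 TPM, with DOX/IgG1 replicate 1 at 0. As only 2 untreated tumors reached 1 TPM, Defb1 too is a description, with a log2 difference of 3.28. Tbx2, Ccser2, Igfbp4 and Defb1 were singled out after their values were seen.

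Most listed genes of the secretory machinery lay lower with doxorubicin. Of 41 UPR and ER chaperone genes, 35 had a log2 difference below 0 and 37 lay below the all-gene median; the list's median was -0.50 beside 0.12 over all genes, -0.62 with IgG1 and -0.20 with anti-PD-1. 18 of 41 were lower at an unadjusted p below 0.05 and none higher, where 3.16% of all genes were lower. 26 of 41 were lower with both antibodies, as were 19.2% of all genes. Of 38 genes for ER translocation, glycosylation and cargo, 34 lay below 0, 16 were lower at an unadjusted p below 0.05 and none higher, and 29 were lower with both antibodies; the median was -0.37. In each list, 3 members had 3 tumors below 3 within each antibody, where 0.278% of all genes did. None passed the limma test with 12 tumors. Bulk RNA cannot tell fewer cells of a type from less RNA per cell.

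In summed TPM the UPR list stood at 14198, 15640 and 18454 without doxorubicin and at 7998, 10000 and 15703 with it. 5 of 6 treated tumors lay below every untreated one, and DOX/anti-PD-1 replicate 2 lay among them. The translocation list stood at 6358, 7208 and 7678 against 4141, 4972 and 7036. The same tumor was the only treated one within the untreated range. The 19 luminal markers had a median log2 difference of -0.02. At an unadjusted p below 0.05, 3 of them were higher and 3 lower (all genes: 8.82% and 3.16%). With 11 tumors Cldn4, Esr1, Krt19 and Foxa1 rose, and the median was -0.05. In that fit 7 were higher and 3 lower at an unadjusted p below 0.05 (11.3% and 3.41% of all genes). Cldn4, Esr1, Krt19 and Foxa1 passed neither with all 12 tumors nor with any other tumor left out. Without DOX/IgG1 replicate 1 the median of the UPR list was -0.47 and that of the translocation list -0.35.

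Xbp1, the transcription factor of the UPR, stood at 780, 914 and 1019 TPM without doxorubicin and at 297, 456 and 718 TPM with it. The arms did not overlap, and the 3 DOX/IgG1 tumors were the lowest. The log2 difference of Xbp1 was -1.02 (SE 0.19, limma adjusted p = 0.108, lower in 6 of 6), -1.45 with IgG1 and -0.59 with anti-PD-1; with 11 tumors it was -0.95 (limma adjusted p = 0.0493), short of the fold limit. Nucb2, a calcium-binding secretory pathway protein and precursor of nesfatin, stood at 167, 258 and 418 TPM against 69.2, 107 and 186 TPM. The arms overlapped by DOX/anti-PD-1 replicate 1, and within each antibody they did not. For Nucb2 the log2 difference was -1.21 (limma adjusted p = 0.118), and with 11 tumors it fell by 1.11 (limma adjusted p = 0.0588). Nucb2 passed with no other tumor left out.

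Sec11c and Spcs2, subunits of the signal peptidase, were chosen after their values were seen, as was Edem3, outside both lists, a mannosidase that marks misfolded glycoproteins for disposal. Sec11c stood at 192, 197 and 244 TPM without doxorubicin and at 85.6, 108 and 163 TPM with it. The arms of Sec11c did not overlap, and its log2 difference was -0.86 (SE 0.17, limma adjusted p = 0.118). Spcs2 stood at 179, 218 and 258 TPM against 86.2, 114 and 177 TPM, a log2 difference of -0.83. Edem3 stood at 76.9, 83.3 and 94.2 TPM against 45.6, 53.8 and 64.9 TPM, a log2 difference of -0.62. Neither of these overlapped between the arms.

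Hspa5, the main ER chaperone, stood at 1546, 2198 and 2899 TPM against 1189, 1462 and 2610 TPM, a log2 difference of -0.39 that was -0.84 with IgG1 and 0.05 with anti-PD-1. Calr, which holds glycoproteins during folding, stood at 1784, 2786 and 3543 TPM against 925, 1763 and 3156 TPM, a log2 difference of -0.58, which was -0.39 without DOX/anti-PD-1 replicate 3. The arms of Hspa5 and Calr overlapped. Rpn1, of the oligosaccharyltransferase, had a log2 difference of -0.35. Derl3, which returns misfolded proteins to the cytosol, had -2.49 with IgG1 and 0.04 with anti-PD-1. Srp54a, of the signal recognition particle, had -3.02 over both antibodies, and 3 treated tumors were at 0 for it.

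Many UPR genes carry the ER stress response element (ERSE) in the promoter, and a few are printed to show a feature that some of these members share. The letters CCAAT and CCACG with 9 bases between them were searched on both strands from 250 bases before to 50 after each gene's start, in sequences from RefSeq (GRCm38.p6). They were found in 9 of 34 matched UPR genes (26.5%), in 0 of 27 of the translocation list, in 19 of 11131 tested genes (0.171%) and in 0.137% of all genes with a promoter sequence. The shorter ERSE-II, ATTGG and CCACG with 1 base between them, was found in 2 of 34 UPR genes (5.88%) and in 0.0719% of tested genes; both motifs share the letters CCACG. Among the 34 matched genes with 3 tumors below 3 within each antibody, 1 held an ERSE. The windows below run 5′ to 3′ on the gene's own strand with the match in capitals: Canx, a chaperone apart within each antibody, at chr11:50325769-50325848 on the minus strand; Hspa5 at chr2:34771995-34772074 on the plus strand; Calr at chr8:84847044-84847123 on the minus strand; Pdia6, a disulfide isomerase, at chr12:17266461-17266540 on the plus strand; and Herpud1, of ER-associated degradation, with ERSE-II at chr8:94386343-94386422 on the plus strand. In Calr the match reads on the opposite strand.
Canx: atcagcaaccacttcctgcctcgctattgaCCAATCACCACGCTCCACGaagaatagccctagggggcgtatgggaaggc
Hspa5: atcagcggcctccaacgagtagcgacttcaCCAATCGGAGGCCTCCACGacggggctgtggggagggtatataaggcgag
Calr: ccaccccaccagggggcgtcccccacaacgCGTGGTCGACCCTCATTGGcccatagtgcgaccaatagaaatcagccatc
Pdia6: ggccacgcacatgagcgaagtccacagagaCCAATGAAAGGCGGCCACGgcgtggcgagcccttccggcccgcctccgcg
Herpud1: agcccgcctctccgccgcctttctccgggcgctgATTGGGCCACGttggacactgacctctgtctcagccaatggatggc
A match describes the letters in a window and says nothing about binding.

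**Figure D3:**
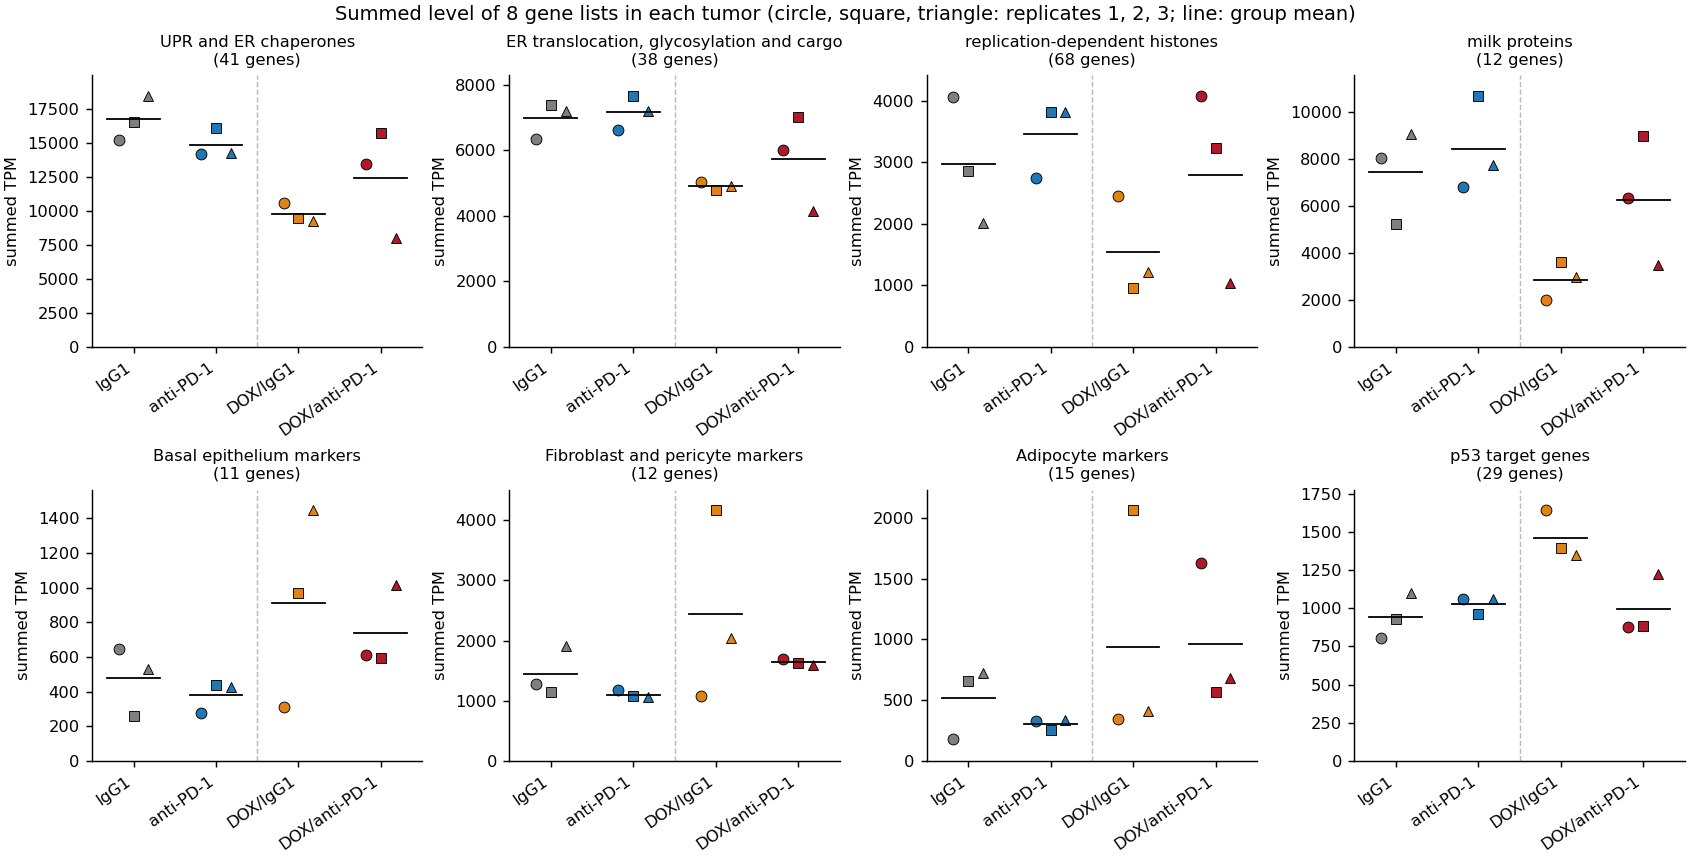
Summed TPM of 8 gene lists in each tumor, by group; circle, square and triangle are replicates 1, 2 and 3, and the line is the group mean. The UPR sums of 5 of 6 treated tumors lay below 14198 TPM, the lowest untreated value, and 2 tumors gave the highest adipocyte sums.

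Secreted products lay lower as well, though less evenly between the antibodies. The 11 milk protein genes tested had a median of -0.99, which was -1.67 with IgG1 and 0.03 with anti-PD-1, so the list as a whole did not hold with both. It also leaned on 1 untreated tumor: without IgG1 replicate 3 the median was -0.33. Csn3, which encodes kappa casein, stood at 4472, 6909 and 9221 TPM against 812, 2870 and 7864 TPM, a log2 difference of -1.17. Lalba, the lactose synthase subunit, had a log2 difference of -1.88, which was -1.23 without DOX/IgG1 replicate 1. The arms of both overlapped. Csn1s1, an alpha casein, stood at 49.7, 125 and 209 TPM against 9.39, 38 and 89.0 TPM, at -1.67 with IgG1 and -1.78 with anti-PD-1, and with 11 tumors it fell by 2.07 (limma adjusted p = 0.0252). Csn1s1 passed with no other tumor left out. Of 17 acute phase and defense genes, with a median of -0.73, 9 were lower at an unadjusted p below 0.05 and none higher. Of all genes, 3.16% were lower and 8.82% higher at that limit. The acute phase sums stood at 9380, 9974 and 12047 TPM against 6552, 8216 and 14290 TPM, and the highest of all 12 was DOX/IgG1 replicate 1. The most abundant of these genes, the copper carrier ceruloplasmin encoded by Cp, had a log2 difference of -0.10, and Dmbt1, a mucosal scavenger receptor, -2.16.

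The 63 replication-dependent histone genes tested had a median of -0.82, and 58 lay below 0, where 63.3% of all genes lay above it. At an unadjusted p below 0.05, 18 were lower and 1 higher, beside 3.16% and 8.82% of all genes. Without DOX/anti-PD-1 replicate 3 the histone median was -0.49. The 30 mitosis genes had a median of -0.29, which ranged from -0.46 to -0.17 with 1 tumor left out. Of these, 28 lay below 0 and 3 were lower at an unadjusted p below 0.05 (all genes: 3.16%). The 35 genes of S phase and replication had a median of 0.02, which was below 0 under both other scalings. Differences between these lists were not tested. Histone sums stood at 2010, 3339 and 4058 TPM without doxorubicin and at 950, 1835 and 4085 TPM with it. DOX/IgG1 replicates 2 and 3 and DOX/anti-PD-1 replicate 3 were lowest, the same tumors that lay away on the first principal component, and DOX/anti-PD-1 replicate 1 was the highest of all 12.

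Hist1h2af, a histone H2A gene, stood at 56.1, 116 and 179 TPM without doxorubicin, and 3 treated tumors were at 0 for it, 1 at 1.16 and the others at 85.4 and 107 TPM. The last pair, given DOX/anti-PD-1, lay within the range of the untreated tumors, and the log2 difference of Hist1h2af was -6.08 with IgG1 and -2.61 with anti-PD-1. With 11 tumors Hist1h2af fell by 4.07 (limma adjusted p = 0.0883). Hist1h3f, Hist2h2ac, Hist1h2ap and Hist2h2bb also passed as lower there, with log2 differences of -2.40, -1.78, -4.69 and -1.26. The latter genes passed with no other tumor left out. Without DOX/anti-PD-1 replicate 3 Hist1h2ap had -2.54 and Hist2h2bb -0.78. Without DOX/IgG1 replicate 2 Hist2h2ac had -1.11, and without IgG1 replicate 1 Hist1h3f had -1.66. For Hist1h2ap, DOX/IgG1 replicates 2 and 3 and DOX/anti-PD-1 replicate 3 were at 0. Its other treated tumors, DOX/IgG1 replicate 1 among them, lay within the untreated range. Some histone genes, chosen after their values were seen, also ranged widely among untreated tumors. Hist1h2ag ran from 0 to 121 TPM there and Hist1h2an from 0 to 87.3 TPM. Whether reads were shared between histone genes, as they could be for Saa1 and Saa2, was not tested. Their single differences may therefore not be separate ones. Hist1h3f reached 1 TPM in 2 treated tumors only, so it entered through the untreated ones and is a description. Hist2h2aa1, the most abundant histone gene, had a log2 difference of -0.80, which was -0.33 without DOX/anti-PD-1 replicate 3. Top2a, the isoform of topoisomerase II found in dividing cells and a target of the drug, stood at 112, 130 and 168 TPM against 33.5, 96.2 and 155 TPM, a log2 difference of -0.66, or -0.42 without DOX/IgG1 replicate 2. Mki67, the proliferation marker, stood at 57.0, 118 and 152 TPM against 25.2, 66.6 and 150 TPM, at -0.98 with IgG1 and -0.70 with anti-PD-1. Ube2c, which works with the anaphase-promoting complex, had -0.90. The arms of Top2a, Mki67 and Ube2c overlapped, and none of them passed the test with 12 or 11 tumors.

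p53 target genes lay higher with IgG1, and close to all genes with anti-PD-1. Of 29, 24 had a log2 difference above 0 and 19 were higher with both antibodies, beside 63.3% and 39.5% of all genes. At an unadjusted p below 0.05, 11 were higher and none lower (all genes: 8.82% and 3.16%). The median was 0.39, with 0.63 in IgG1 tumors and 0.19 in anti-PD-1 tumors, where all genes had 0.12 and 0.11. With anti-PD-1 the sums stood at 960, 1063 and 1064 TPM against 878, 886 and 1227 TPM, so 2 of 3 treated tumors lay below every untreated one. DOX/IgG1 replicate 1 had the highest summed level, 1647 TPM, and without it 5 of 29 were higher at an unadjusted p below 0.05 (all genes: 11.3%), with a median of 0.33. Cdkn1a, the kinase inhibitor that arrests the cycle, stood at 8.99, 13.2 and 29.3 TPM without doxorubicin and at 13.7, 33.0 and 67.6 TPM with it. The arms overlapped, with anti-PD-1 replicate 3 high and DOX/anti-PD-1 replicate 2 low for their groups. Cdkn1a differed by 1.19 on the log2 scale (SE 0.36, limma adjusted p = 0.240). Phlda3, which blocks AKT at the membrane, stood at 8.37, 10.5 and 13.3 TPM against 11.9, 24.8 and 42.7 TPM, apart within each antibody, with a log2 difference of 1.11 (SE 0.27, limma adjusted p = 0.196). Zmat3, an RNA-binding regulator of splicing, had 0.96, and Perp, the most abundant of the list, -0.10. Phlda3 and Zmat3 were chosen after their values were seen. With 11 tumors 2 of 29 rose, the lipid transfer protein gene Pltp and the kinase gene Plk2. Neither passed with all 12 tumors or with any other tumor left out. The 17 genes of the BCL-2 family had a median of 0.05 (below 0 under both other scalings), with none at an unadjusted p below 0.05 in either direction. Damage signaling and repair had 0.16 (below 0 with quantile normalization, 0.01 without IgG1 replicate 1) and the drug's targets and transporters 0.10 (below 0 under both other scalings). Senescence-associated genes had 0.22, but -0.04 without DOX/IgG1 replicate 1, and NRF2 targets 0.21, or 0.09 without DOX/anti-PD-1 replicate 2.

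Markers of cells around the luminal epithelium varied between single tumors. All 11 basal epithelium markers had a log2 difference above 0, with a median of 0.49, and 2 were higher at an unadjusted p below 0.05, where 63.3% and 8.82% of all genes were. Their sums stood at 260, 432 and 643 TPM without doxorubicin and at 313, 790 and 1450 TPM with it. Only DOX/IgG1 replicates 2 and 3 and DOX/anti-PD-1 replicate 3 lay above the highest untreated sum. DOX/IgG1 replicate 1 was the lowest treated tumor, and without it the median was 1.09; without IgG1 replicate 2 it was 0.32. Acta2, smooth muscle actin and the most abundant of them, stood at 76.8, 153 and 212 TPM against 63.7, 252 and 507 TPM, a log2 difference of 0.79. Tagln, another actin-binding contractile protein, had 1.15. With 11 tumors 5 of 11 rose in limma: Acta2 by 1.20, Tagln by 1.42, Mylk by 1.39, Oxtr by 1.09 and Myh11 by 1.31. With all 12 the log2 difference was 0.94 for Mylk, 0.49 for Oxtr and 0.73 for Myh11, and without DOX/IgG1 replicate 3 it was 0.54 for Acta2, 0.65 for Mylk, 0.17 for Oxtr and 0.39 for Myh11. None of the 5 passed with any other tumor left out. Oxtr, the oxytocin receptor of contractile cells, was at 5.64 TPM in DOX/IgG1 replicate 1 and at 42.3 TPM or more in the other treated tumors. The keratins of the list, chosen after their values were seen, overlapped between the arms. Krt5 ran from 7.58 to 27.7 TPM without doxorubicin and from 8.32 to 45.5 TPM with it. Krt14 ran from 17.0 to 64.7 against 17.1 to 112 TPM, and Krt17 from 2.63 to 12.7 against 5.92 to 13.3 TPM.

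Of 12 fibroblast and pericyte markers, with a median of 0.41, 10 lay above 0 (all genes: 63.3%). At an unadjusted p below 0.05, 3 of these markers were higher (all genes: 8.82%). The median was 0.27 without DOX/IgG1 replicate 2 and 0.63 without DOX/IgG1 replicate 1. Their sums stood at 1055, 1159 and 1909 TPM against 1079, 1664 and 4177 TPM. The arms overlapped, and DOX/IgG1 replicate 2 was far above the rest. Gsn, the actin-severing protein gelsolin, stood at 52.5, 61.4 and 116 TPM against 77.3, 224 and 893 TPM, at 1.78 with IgG1 and 1.47 with anti-PD-1 in log2 difference. Vim, the intermediate filament of mesenchymal cells and the most abundant marker, stood at 213, 329 and 458 TPM against 439, 544 and 1820 TPM, a log2 difference of 1.10. The arms of Gsn and Vim overlapped. On the other side, 2 markers lay below 0. Postn, chosen after its values were seen, stood with IgG1 at 437, 605 and 1008 TPM without doxorubicin and at 305, 336 and 287 TPM with it. With anti-PD-1 Postn overlapped, at 571, 436 and 341 TPM against 507, 603 and 322 TPM. With 11 tumors Dcn, Gsn, Lum and Vim rose, by 1.55, 2.0, 1.13 and 1.29. Without DOX/IgG1 replicate 2 their log2 differences were 0.89, 1.22, 0.53 and 0.83, and none of them passed there or with any other tumor left out. The 13 tested endothelial markers had a median of 0.28 (-0.04 with IgG1 and 0.60 with anti-PD-1), and 0.15 without DOX/IgG1 replicate 2. Of 10 Schwann cell markers, 9 lay above 0 and 5 were higher at an unadjusted p below 0.05 (all genes: 63.3% and 8.82%). Their median was 0.51, and ran from 0.36 to 0.63 with 1 tumor left out.

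Adipocyte markers, from the fat pad around the gland, had a median of 0.92 over 14 genes. Of these, 13 lay above 0 and 4 were higher at an unadjusted p below 0.05 (all genes: 63.3% and 8.82%). Their sums stood at 176, 330 and 727 TPM against 341, 624 and 2066 TPM. DOX/IgG1 replicate 2 (2066) and DOX/anti-PD-1 replicate 1 (1626) were highest, and without this pair the median was 0.24. With 1 tumor left out it ran from 0.61 to 1.19. Car3, the most abundant, had a log2 difference of 1.22 and Retn, which encodes resistin, 1.45, or 0.80 without IgG1 replicate 1. Skeletal muscle markers were uneven as well, from 25.8 to 1883 TPM in summed level with doxorubicin and from 54.6 to 1100 TPM without, at a median of -0.12 that ran from -0.67 without DOX/anti-PD-1 replicate 1 to 0.66 without DOX/anti-PD-1 replicate 2. What part RNA of basal cells, fibroblasts, fat or muscle had in any gene's difference was not tested.

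The 40 collagen genes tested had a median of 0.13, close to the 0.12 of all genes, but -0.17 with IgG1 and 0.37 with anti-PD-1, and 0.04 to 0.20 with 1 tumor left out. There were 7 higher and 6 lower at an unadjusted p below 0.05 (all genes: 8.82% and 3.16%), and Col27a1 alone passed. Col4a1, the basement membrane chain and the most abundant, stood at 257, 367 and 535 TPM against 448, 539 and 621 TPM, a log2 difference of 0.52. With 11 tumors Col23a1 rose by 2.18 and Col4a3 by 1.55, and Col12a1 fell by 1.15. With all 12 Col23a1 had 1.77. Without DOX/IgG1 replicate 3 Col4a3 had 0.68. Neither Col23a1 nor Col4a3 passed with any tumor other than DOX/IgG1 replicate 1 left out. The 27 matrix proteases and inhibitors had a median of 0.36 (0.24 to 0.43 with 1 tumor left out). At an unadjusted p below 0.05, 9 were higher and 1 lower (all genes: 8.82% and 3.16%). Timp3, a protease inhibitor bound to matrix, stood at 161, 219 and 376 TPM against 235, 508 and 787 TPM, a log2 difference of 0.99. Mmp3, stromelysin, stood at 21.8, 30.3 and 75.7 TPM against 40.3, 83.6 and 127 TPM and rose with 11 tumors by 1.29 (limma adjusted p = 0.0704), as did Adamtsl1 by 1.80. Without DOX/IgG1 replicate 2 Adamtsl1 had 0.92, and neither passed with any other tumor left out. Mmp9 was at 0 in 5 untreated tumors and reached 8.42 TPM with doxorubicin, with 1 treated tumor at 0.

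**Figure D4:**
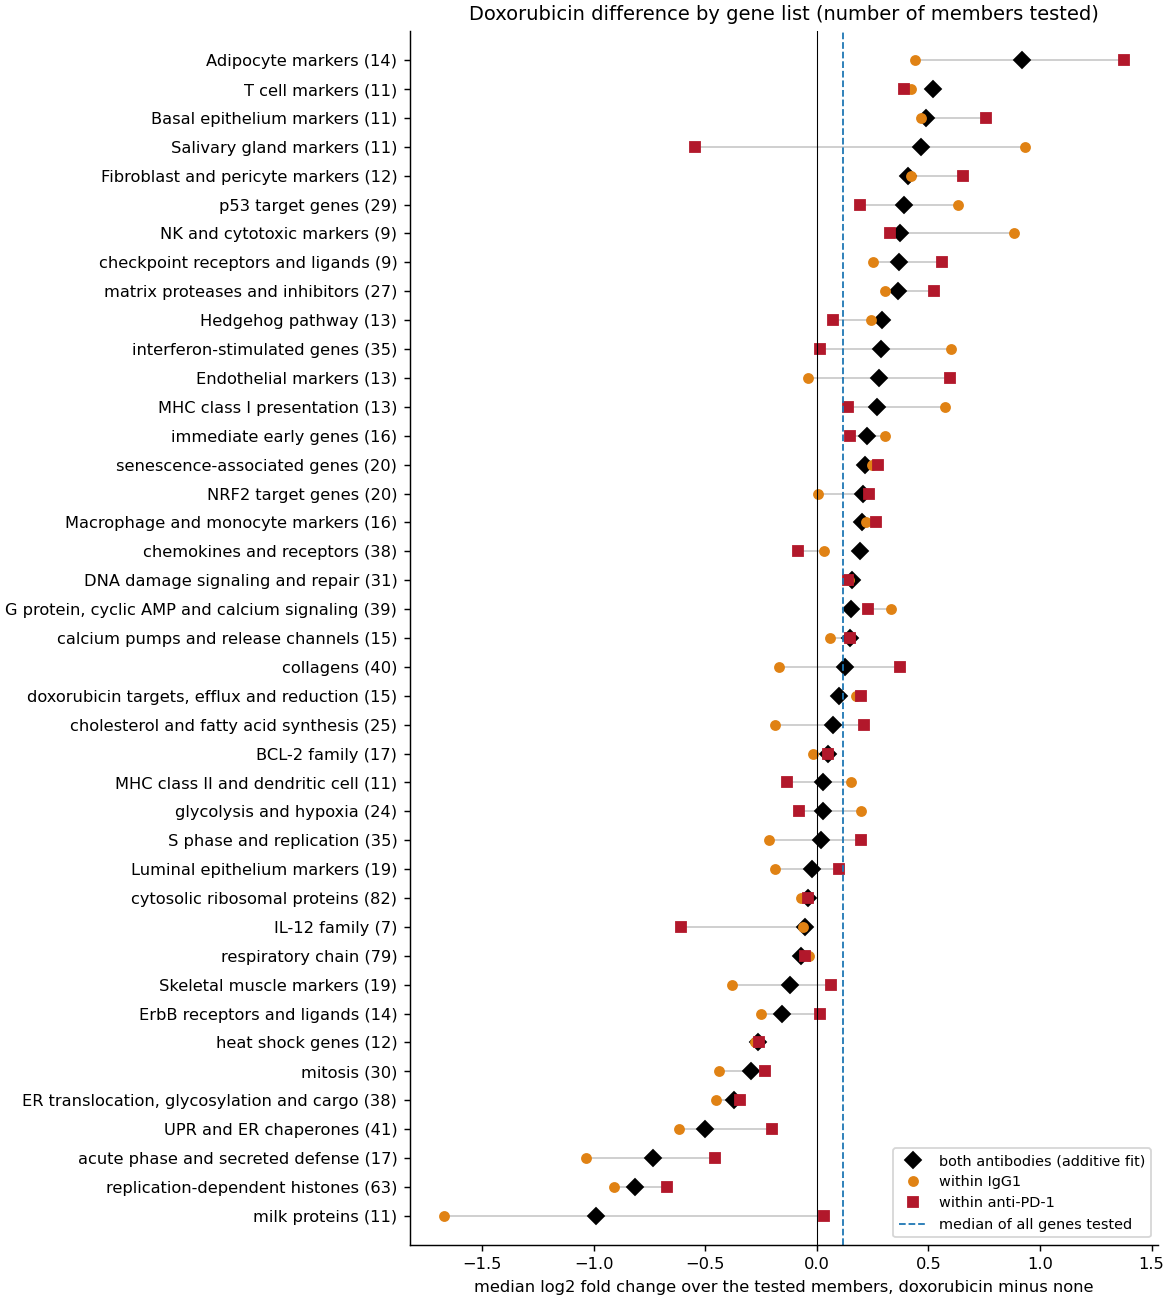
Median log2 fold change over the tested members of gene lists, doxorubicin minus none, over both antibodies (diamond), within IgG1 (circle) and within anti-PD-1 (square); the dashed line is the all-gene median of 0.12. Histones, acute phase genes, the UPR list and the translocation list lay below the line with each antibody, and basal markers lay above it. The Schwann cell, neutrophil, and B and plasma cell lists are not drawn.

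Of 13 genes for MHC class I presentation, 12 lay above 0 (all genes: 63.3%). Their median was 0.27 (0.16 to 0.43 with 1 tumor left out), and 5 were higher at an unadjusted p below 0.05 (all genes: 8.82%). With IgG1 the median was 0.57 and with anti-PD-1 0.14, where all genes had 0.12 and 0.11. Of the 13, 8 were higher with both antibodies (all genes: 39.5%). The list thus lay close to all genes with anti-PD-1. Nlrc5, the transactivator of class I genes, stood at 65.8, 87.4 and 168 TPM without doxorubicin and at 154, 191 and 235 TPM with it. The arms overlapped by a pair of untreated tumors, and the log2 difference of Nlrc5 was 0.94 (SE 0.25, limma adjusted p = 0.206), 0.83 with IgG1 and 1.05 with anti-PD-1. B2m, the light chain and the most abundant, had 0.71 with IgG1 and -0.48 with anti-PD-1. The 35 interferon-stimulated genes had a median of 0.29, at 0.60 with IgG1 and 0.02 with anti-PD-1, and 0.23 to 0.47 with 1 tumor left out. Irf7, the most abundant of them, had -0.17, and Cxcl9, a T cell attractant, -1.51, at 4.07, 8.30 and 26.4 TPM against 0, 2.87 and 6.05 TPM. MHC class II and dendritic cell genes had 0.03 (below 0 under both other scalings), checkpoint genes 0.37 (0.24 to 0.54 with 1 tumor left out) and the IL-12 family -0.05 (-0.40 to 0.06). Chemokines and their receptors had 0.19, with 0.03 in IgG1 tumors and -0.08 in anti-PD-1 tumors, and 0.0049 without DOX/anti-PD-1 replicate 2. At an unadjusted p below 0.05, 0 were higher and 4 lower (all genes: 8.82% and 3.16%). With 11 tumors 4 were higher and 1 lower (all genes: 11.3% and 3.41%), and Cxcl15 passed as higher. Cxcl15 passed with no other tumor left out.

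T cell markers were low, from 20.2 to 35.5 TPM in summed level without doxorubicin and from 27.2 to 78.5 TPM with it, and their median was 0.52, between 0.29 and 0.60 with 1 tumor left out. DOX/IgG1 replicates 2 and 3 were highest. Of 11 tested, 8 lay above 0 and 3 below (all genes: 63.3% above). At an unadjusted p below 0.05, 2 were higher and none lower (all genes: 8.82% and 3.16%). Il2ra, chosen after its values were seen, ran from 1.81 to 6.89 TPM without doxorubicin and from 0 to 5.43 TPM with it. Cd3g, a chain of the T cell receptor complex, stood at 0, 1.60 and 4.00 TPM against 2.27, 7.79 and 15.1 TPM. It rose with 11 tumors by 1.91 (limma adjusted p = 0.0915) and passed with no other tumor left out. Cd3e, the most abundant, had a log2 difference of 0.92 (0.53 to 1.48 with 1 tumor left out), with overlapping arms. NK and cytotoxic markers had a median of 0.37 (0.17 to 0.77 with 1 tumor left out), macrophage and monocyte markers 0.20 (0.12 to 0.26) and neutrophil markers -0.07 (-0.26 to 0.15). Of B and plasma cell markers a single gene was tested, at 0.13 (-0.30 to 0.59).

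Of 12 heat shock genes, 11 lay below 0, where 63.3% of all genes lay above it, and the median was -0.26. Hsph1, a nucleotide exchange factor for HSP70 chaperones, stood at 66.7, 80.6 and 88.6 TPM against 24.9, 46.0 and 63.3 TPM. The arms of Hsph1 did not overlap, and its log2 difference was -0.81 (SE 0.21, limma adjusted p = 0.206), -0.78 with IgG1 and -0.85 with anti-PD-1. Hspa8, the constitutive HSP70, had -0.36, with DOX/IgG1 replicate 1 the highest of all 12 tumors. The 39 genes of G protein, cyclic AMP and calcium signaling had a median of 0.15, near the 0.12 of all genes. It ran from 0.12 to 0.24 with 1 tumor left out. At an unadjusted p below 0.05, 8 were higher and none lower (all genes: 8.82% and 3.16%). Gnai1, an inhibitory G protein subunit, stood at 0.42, 1.21 and 1.64 TPM against 1.76, 3.02 and 8.15 TPM, with the arms apart and a log2 difference of 1.12 (limma adjusted p = 0.225), while the kinase subunit gene Prkar1a had 0.39, or 0.20 without anti-PD-1 replicate 1. Calcium pumps and channels had a median of 0.15 (0.07 to 0.16 with 1 tumor left out), the Hedgehog pathway 0.29 (0.16 to 0.39), immediate early genes 0.22 (0.15 to 0.32) and ErbB receptors and ligands -0.16 (-0.28 to -0.03). Housekeeping and metabolic lists lay near 0: ribosomal proteins at -0.04, the respiratory chain at -0.07, cholesterol and fatty acid synthesis at 0.07, and glycolysis and hypoxia at 0.03, the last pair below 0 under both other scalings. The signs of these 4 turned with 1 tumor left out.

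Whether the doxorubicin difference depended on the antibody was tested as the interaction. It passed for 1 gene in limma (0.00679%), with 694 at an unadjusted p below 0.05 (4.71%), where 736.75 would fall by chance. That gene, Bpifa2, a secreted salivary protein, entered the test only through the 3 tumors in which it was above 0, so its values are a description. Bpifa2 was listed at 0 in all 6 untreated tumors and the 3 tumors given DOX/anti-PD-1, and had 14.4, 21.3 and 53.7 TPM in those given DOX/IgG1 (interaction adjusted p = 0.0909). The call was absent with a pseudocount of 0.1 and when 1 TPM was asked of 6 or more tumors. Smr3a, another salivary gene, stood at 16.6, 10.2 and 14.8 TPM in the same tumors and was listed at 0 with DOX/anti-PD-1. Only 1 other tumor reached 1 TPM, so Smr3a too is a description. Salivary gland markers as a list had a median of 0.47, at 0.93 with IgG1 and -0.55 with anti-PD-1, and of 0.08 without DOX/IgG1 replicate 2; Smgc and Prh1 were at 0 in all tumors, and the sums were lower with doxorubicin, at 403, 858 and 1049 TPM against 196, 463 and 709 TPM. The part of salivary tissue in these values was not tested. In the fit of all 12 tumors, the doxorubicin difference within IgG1 passed for 7 genes in limma (0.0475%) and that within anti-PD-1 for none (0%). A separate fit of the 6 tumors given IgG1, with or without doxorubicin, passed Hist1h2af, Saa1 and Saa2 as lower and, as higher, only Bpifa2 and Smr3a, the pair described above, with 717 higher and 395 lower at an unadjusted p below 0.05. The same fit of the 6 given anti-PD-1 passed none, with 891 and 343.

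Opposite signs with the antibodies were seen for Ntrk2, the receptor for brain-derived neurotrophic factor, at 1.70 with IgG1 and -1.57 with anti-PD-1, for Megf6, at -1.55 and 1.47, and for Lgr6, a receptor for R-spondins, at -1.27 and 1.16. The limma interaction adjusted p was 0.993 for Ntrk2 and Megf6 and 0.548 for Lgr6. Vamp1, a vesicle fusion protein, had 1.35 with IgG1 and -0.78 with anti-PD-1, and Fxyd2, a sodium pump subunit, 2.35 and 0.11. Pdk4, which shuts off pyruvate dehydrogenase, went the other way, with -0.07 and 2.19. Cpt1b, of fatty acid entry into mitochondria, had -1.53 and 2.91, with a limma interaction adjusted p of 0.938. Pagr1a was above 0 in the 3 IgG1 tumors alone and entered the test only through them, so this is a description. Dio2, which activates thyroid hormone, had 0.42 and 1.35, Ttyh1 2.27 and 0.81, and Col9a1, a cartilage collagen chain, -1.82 and -0.51, so these 3 kept a direction. None of these genes passed the test over both antibodies.

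**Figure D5:**
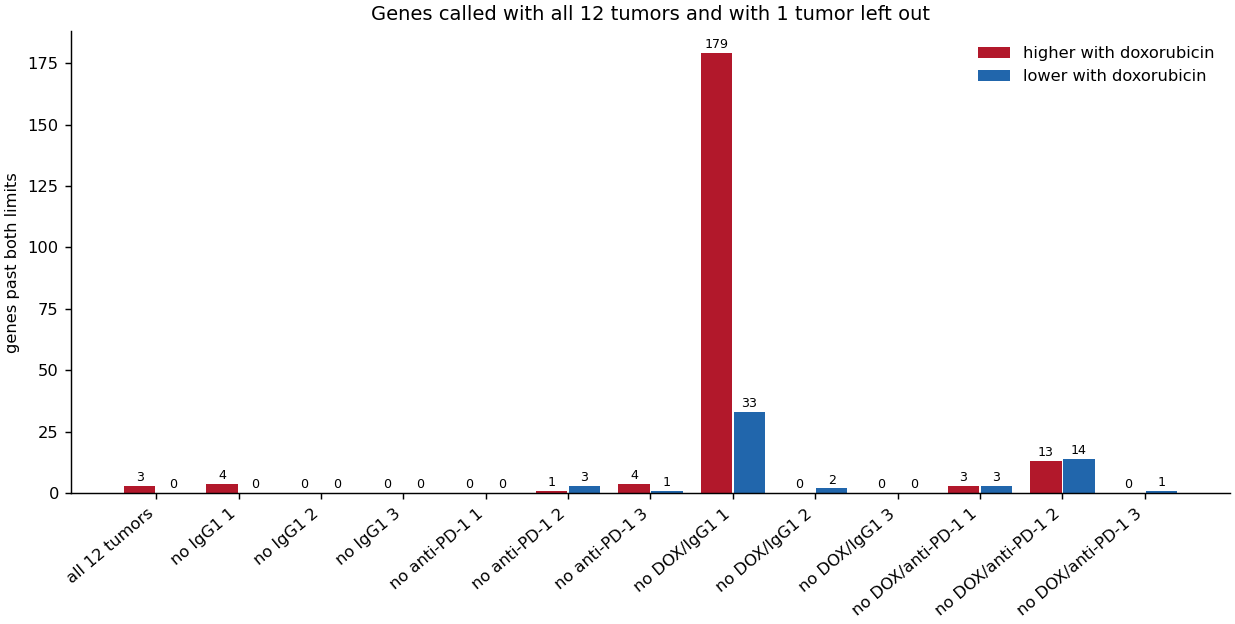
Number of genes past both limits, higher (red) and lower (blue) with doxorubicin, with all 12 tumors and with each tumor left out in turn. Without DOX/IgG1 replicate 1, 179 and 33 genes passed, against 3 and 0 with all tumors.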

How the data were processed

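The authors aligned reads to mm10 with STAR and quantified them with RSEM, after trimming with skewer; versions were not given. The deposited unit was log2 of TPM plus 1, written with decimal commas, and TPM was recovered from it. Of 21960 genes, 21860 matched GENCODE annotation of GRCm38 by identifier, and 4214 were at 0 in all tumors. Column headers carry marks (Cov.1, Cov.2, test) that nothing explains; Cov.2 falls on the 3 DOX/anti-PD-1 tumors and test on DOX/IgG1 replicate 1, and neither was used as a batch. Genes with at least 1 TPM in 3 or more tumors entered limma 3.58.1 (R 4.3.3; lmFit, then eBayes with trend on; p-values two-sided and adjusted by Benjamini-Hochberg over 14735 genes), with doxorubicin and antibody as additive terms. A gene passed when the adjusted p was under 0.1 and the log2 difference was over 1 in size. The interaction and the contrasts within each antibody used the same genes, and lists were described by counts and medians without a test. The exact permutation test shuffled doxorubicin labels within antibodies. Tables and figures were made with Python 3.11.15, pandas 2.3.3, numpy 2.4.6 and matplotlib 3.10.9, and the fit was tested on simulated data. The members and the 44 lists were chosen with earlier results of these data known. Named genes were those called, up to 12 in each direction, the most abundant and most changed member of each list and any called member, genes the study lists in 2 comparisons, up to 5 genes by interaction p, and Saa1, Saa2, Cdkn1a, Top2a, Xbp1, Hspa5 and Mki67; Igfbp4, Ccser2, Tbx2, Sec11c, Spcs2, Edem3, Phlda3, Zmat3 and Defb1, and the other members named only for the 11 tumors, were added after values were seen. Scaling, filter, pseudocount, covariate, trend, tumor weights, a replicate block and each tumor left out were varied.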

Additional observations from a re-analysis of the deposited data

Results flagged for a closer look

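In 20 of 264 sets of 6 values (log2 levels of 88 genes and summed TPM of 44 lists, in each arm), 1 tumor lay so far out that its gap to the nearest other tumor, as a share of the whole range, was past Dixon's critical value for 6 samples. Chance alone gives this in about 1 in 20 such sets, or 13.2 here, so the number is read against that.

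Among tumors without doxorubicin, the gap as a share of the range was 1.00 for Smr3a (anti-PD-1 replicate 3 at 1.91 on the log2 scale, the others at 0), 1.00 for Mmp9 (IgG1 replicate 1 at 2.10, the others at 0), 0.762 for Derl3 (anti-PD-1 replicate 1 low, at 2.24), 0.674 for Lalba (anti-PD-1 replicate 2 high, at 9.94), 0.666 for Cp (IgG1 replicate 3 high, at 12.34), 0.674 for B2m (IgG1 replicate 2 low, at 9.40) and 0.759 for Oxtr (IgG1 replicate 3 high, at 5.66). In the summed lists it was 0.679 for neutrophil markers (IgG1 replicate 2 low, at 1.98 TPM), 0.729 for endothelial markers (IgG1 replicate 3 high, at 287 TPM), 0.731 for fibroblast and pericyte markers (IgG1 replicate 3 high, at 1909 TPM), 0.879 for interferon-stimulated genes (anti-PD-1 replicate 1 high, at 2494 TPM, the others at 1325 to 1467 TPM) and 0.711 for glycolysis and hypoxia (anti-PD-1 replicate 3 high, at 5506 TPM).

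Among tumors with doxorubicin, the share was 0.703 for Rpn1 (DOX/anti-PD-1 replicate 2 high, at 10.06), 0.767 for Hspa8 (DOX/IgG1 replicate 1 high, at 11.98), 0.654 for Zmat3 (DOX/anti-PD-1 replicate 1 low, at 3.25) and 0.653 for Oxtr (DOX/IgG1 replicate 1 low, at 2.73). In the summed lists it was 0.825 for skeletal muscle markers (DOX/anti-PD-1 replicate 1 high, at 1883 TPM), 0.687 for fibroblast and pericyte markers (DOX/IgG1 replicate 2 high, at 4177 TPM), 0.701 for the Hedgehog pathway (DOX/IgG1 replicate 1 high, at 413 TPM) and 0.735 for heat shock genes (DOX/IgG1 replicate 1 high, at 8434 TPM).

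Bpifa2 was above 0 in the 3 DOX/IgG1 tumors and at 0 in the other 9, and entered the test only through those 3, so its interaction of -4.73 on the log2 scale (limma adjusted p = 0.0909) is a description whose size the pseudocount sets. The call was absent with a pseudocount of 0.1, when 1 TPM was asked of 6 or more tumors and with a replicate block. With 1 tumor left out at a time it stayed only without DOX/IgG1 replicate 1.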

How the results depend on the processing

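With 3 higher and 0 lower genes as reported (limma; 1300 and 465 at an unadjusted p below 0.05), the number of higher genes was 0 at an adjusted p below 0.05, 0 without the antibody covariate, 0 without a mean-variance trend, 104 with tumor weights and 0 in a fit of anti-PD-1 tumors only. The number of lower genes was 4 when 1 TPM was asked of 6 or more tumors, 11 with median of ratios, 13 with quantile normalization, 28 with tumor weights and 3 in a fit of IgG1 tumors only. As alternatives chosen after seeing the data, it was 5 at an adjusted p below 0.11 and 4 without the 2 tumors with the highest adipocyte sums, where 2 were higher and none of the 3 reported genes passed. The interaction count of 1 became 0 with a pseudocount of 0.1, 3 without a filter on low values and 0 when 1 TPM was asked of 6 or more tumors. The cause was not tested. With 1 tumor left out at a time, the counts ranged from 0 to 179 higher, from 0 to 33 lower and from 0 to 1 for the interaction.

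The labels do not pair tumors. Tumors with the same replicate number had residual correlations across genes of -0.0963 to 0.134, 4 of 18 above 0.1, and 8 of 12 tumors were closest to one with their own number. A replicate block left 1 higher gene, St3gal4, and no interaction (0).

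Signs turned for B2m (-0.0065 with median of ratios, -0.094 without the 2 tumors with the highest adipocyte sums), Lgr6 (0.056 with tumor weights, 0.034 without those 2), Megf6 (0.084 and 0.15 in the same order) and Ntrk2 (-0.051 with median of ratios, -0.070 with quantile normalization, -0.29 with tumor weights); the cause was not tested. With 1 tumor left out, B2m ranged from -0.14 to 0.50, Irf7 from -0.39 to 0.20, Lgr6 from -0.25 to 0.22, Megf6 from -0.36 to 0.29, Ntrk2 from -0.34 to 0.50, Perp from -0.23 to 0.010 and Vamp1 from -0.080 to 0.57. The remaining 81 of 88 genes kept their sign.

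With 3 tumors a group and no counts, the precision of low values is unknown.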
